A study of Homo sapiens with 4 samples.

Results

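To determine how the genes of homologous recombination and of the Fanconi anemia pathway were expressed during short-term treatment and acquired resistance, 34 listed genes were found by symbol among the 33538 genes of the single-cell RNA sequencing (scRNA-seq) matrices. All 34 were present, and they were described in all cells and in the cells that held no UMI of the proliferation genes MKI67 and TOP2A. They divide into 4 roles: 8 genes of damage kinases, the MRE11-RAD50-NBN (MRN) complex and end resection, 12 genes of the BRCA proteins, mediators and strand exchange, 11 genes of the Fanconi core complex with its E2 enzyme and substrates, and 3 genes of the BLM complex.

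The cells were LNCaP, an androgen-sensitive line from a human prostate cancer metastasis, and lines derived from it. LNCaP was kept in 0.1% DMSO, the solvent, for 48 h. LNCaP-ENZ48 was the same line after 48 h in 10 µM enzalutamide (ENZ), a drug that blocks androgen signaling. RES-A and RES-B were ENZ-resistant lines that grew in 10 µM ENZ without a break. RES-A had been obtained by passaging in rising ENZ and RES-B in the related compound RD-162, so both resistant lines carry long culture as well as the drug. Each group was 1 library, without replicates, and the comparisons against LNCaP share that library.

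Homologous recombination repairs double-strand breaks by copying the sister chromatid, and is active in S and G2 phase, when a sister is present. ATM and ATR signal the damage, the MRN complex and nucleases cut the ends back, and BRCA1-BARD1, PALB2 and BRCA2 load the strand-exchange filament. The Fanconi core complex, with the E2 enzyme UBE2T, ubiquitinates FANCD2 and FANCI at crosslinks and stalled forks, and the BLM helicase with RMI1 and RMI2 takes apart joined molecules. Inherited or acquired loss of BRCA2, ATM and PALB2 is known from advanced prostate cancer, where it is used to choose PARP inhibitors.

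After the cell filters, 14727 of 17233 barcodes remained, with 1782 LNCaP cells, 4315 LNCaP-ENZ48 cells, 4569 RES-A cells and 4061 RES-B cells, and 50208831 to 60838227 UMIs (unique molecular identifiers, each 1 captured RNA molecule) per library. LNCaP cells were deeper, with a median of 27079.5 UMIs against 12138 to 13676 in the other libraries. Between 2 and 9 cell barcodes were shared by any pair of libraries. The luminal markers HOXB13, KRT8, KRT18 and EPCAM were at 92.0 CPM or more in all 4 libraries. The luminal markers KLK2, KLK3 and TMPRSS2 were highest in LNCaP (318.8, 717.8 and 106.1 CPM). They were lower in LNCaP-ENZ48 (26.7, 94.97 and 25.5 CPM) and RES-B (23.5, 30.5 and 19.3 CPM). In RES-A, KLK2 and KLK3 were close to absent (0.0872 and 0.0349 CPM), and TMPRSS2 was at 7.499 CPM. Of 12 markers of basal, blood, fibroblast and endothelial cells, KRT5, TP63, PTPRC, CD3E, COL1A2 and CDH5 had no UMI in any library. Summed over each list, the markers reached 0 to 0.299 CPM for basal cells, 0.285 to 1.01 CPM for blood cells, 0.115 to 1.04 CPM for endothelium and 1.46 to 3.21 CPM for fibroblasts. Levels are UMIs summed over cells and scaled to an equal library total (CPM), and ratios are log2 CPM ratios. Where 4 values stand in a row, they follow the order LNCaP, LNCaP-ENZ48, RES-A, RES-B. Brackets hold 95% intervals, which cover counting error only, and no difference has a replicate check or a p-value. A gene was counted as higher or lower where the log2 ratio reached 0.5 in size (1.41-fold) and the mean over both libraries was at least 1 CPM. The share of all genes past the same limit is given beside the first count of members in each comparison. This holds for all cells and for cells without MKI67 or TOP2A UMIs. The share is not given for cells with these UMIs, for counts by sign, by interval, by cycle class or between phases, or for other settings. Those counts describe the members only.

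**Figure D1:**
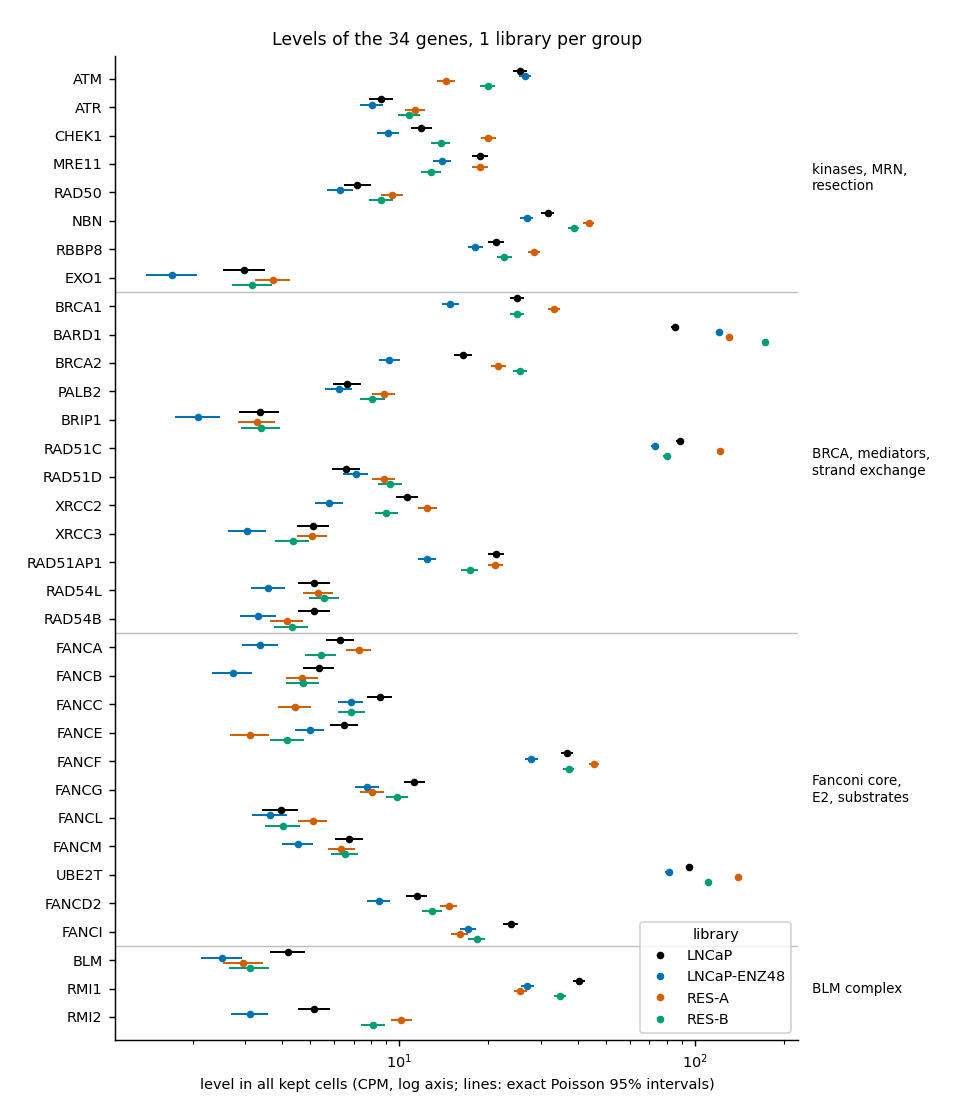
Level of each of the 34 genes in CPM (log axis) in the 4 libraries, by role, with exact Poisson 95% intervals. In LNCaP-ENZ48 (blue) most genes lie left of LNCaP (black), whereas BARD1 goes from 85.6 CPM in LNCaP to 172 CPM in RES-B.

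The members were all detected in every library. The lowest was EXO1, a resection nuclease, in LNCaP and LNCaP-ENZ48 (2.99 and 1.71 CPM) and BLM in both resistant lines (2.96 and 3.12 CPM). The most counted were UBE2T, BARD1 and RAD51C, the last a member of the paralog complexes that help filament assembly. Since the libraries count 3′ ends without a length correction, levels are compared between libraries for 1 gene and not between genes.

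First, the share of cells in cycle was examined, because repair genes of S phase follow it. Cells without MKI67 or TOP2A UMIs made up 61.3%, 79.3%, 67.9% and 68.5% of the 4 libraries. LNCaP cells are deeper and so more often show 1 such UMI. With MKI67 and TOP2A looked up after thinning every cell to 5000 UMIs, the shares were 77.6%, 85.8%, 76.2% and 77.1%, and LNCaP-ENZ48 was still the highest. When 5 genes (MKI67, TOP2A, RRM2, TYMS and HIST1H4C) had to be absent after thinning, the shares were 11.3%, 20.5%, 22.8% and 20.6%, with RES-A the highest. By phase lists from which the members had been taken out, cells called S were 8.02%, 5.08%, 11.9% and 8.37%, and cells called G2/M were 20.2%, 12.7%, 20.6% and 18.7%. LNCaP-ENZ48 thus had the fewest cells called S or G2/M, and RES-A the most.

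The members fell into separate kinds by the ratio of their level in cells with against cells without MKI67 or TOP2A UMIs. This log2 ratio was 1 or more in all 4 libraries for 19 members, under 1 in all 4 for 13, and on either side of 1 for RBBP8 and XRCC3. Among all genes at 1 CPM or more, between 4.07% (RES-A) and 5.09% (LNCaP-ENZ48) reached 1 in a given library. The 19 were CHEK1 and EXO1 of the first role, BRCA1, BRCA2, BRIP1, RAD51C, XRCC2, RAD51AP1, RAD54L and RAD54B of the second, FANCA, FANCB, FANCG, FANCM, UBE2T, FANCD2 and FANCI of the third, and BLM and RMI2 of the fourth. The 13 were ATM, ATR, MRE11, RAD50, NBN, BARD1, PALB2, RAD51D, FANCC, FANCE, FANCF, FANCL and RMI1. Complexes were therefore split. FANCD2 and FANCI, which are ubiquitinated as a pair, were both among the 19. Of the partners BRCA1 and BARD1, only BRCA1 was among them. The core subunit FANCA was among them and FANCF was not, and of the BLM partners RMI2 was and RMI1 was not.

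BRCA1, the ubiquitin ligase that directs breaks to recombination, showed the pattern plainly. In LNCaP it stood at 4.10 CPM in cells called G1, 119.7 CPM in S and 53.3 CPM in G2/M. The levels were 3.13, 106 and 46.6 CPM in LNCaP-ENZ48, and 5.81, 115 and 66.1 CPM in RES-A. RES-B gave 4.07, 111 and 55 CPM. S phase was therefore the highest phase for BRCA1 in every library, and the S levels differed little between libraries. Its partner BARD1 varied much less with phase, with 76.9 CPM in G1, 116 in S and 101 in G2/M in LNCaP, and 179, 208 and 130 CPM in RES-B. In RES-B, BARD1 was lower in cells with MKI67 or TOP2A UMIs than in cells without (log2 ratio -0.28 [-0.34, -0.21]), opposite to the other libraries (0.12 to 0.29).

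S was the phase of highest level for 25, 23, 25 and 27 of the 34 members. By counting intervals, 16 members in LNCaP were higher in S than in G2/M and 3 were higher in G2/M. The 3 were RAD51AP1, a cofactor of strand exchange (49.7 CPM in S, 65.7 CPM in G2/M), UBE2T (185 and 241 CPM) and FANCE, a core subunit that binds FANCD2 (7.0 and 10.5 CPM). The counts were 14 and 4 in LNCaP-ENZ48, 17 and 6 in RES-A, and 21 and 1 in RES-B. The same counts over all genes are not given, so these values do not show a preference particular to the members. UBE2T turned in RES-B, with 277 CPM in S and 228 CPM in G2/M (log2 ratio of S over G2/M 0.28 [0.19, 0.38], against -0.38 [-0.50, -0.27] in LNCaP). XRCC2, another paralog of the strand-exchange recombinase, and RMI2, the OB-fold partner of RMI1, had the steepest preference for S in LNCaP (1.67 [1.38, 1.96] and 1.73 [1.31, 2.15]).

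Because many members moved together with the cycle, the 250 bases before the start of each gene were searched for the letters TTTNNCGC, as bound by E2F factors, and TTTGAA, the cell cycle homology element, on both strands. Of the members, 30 had an entry in the RefSeq promoter table (GRCh38.p14; the entry listed first where a gene had several starts). TTTNNCGC was found in 2 of 30 (6.67%), FANCA and FANCC, against 5.93% of all promoters and 9.32% of those of genes at 1 CPM or more. TTTGAA was found in 4 of 30 (13.3%), ATM, BRIP1, FANCC and UBE2T, against 13.6% and 7.79%. By cycle class, TTTNNCGC was in 1 of 16 promoters of the 19 (6.25%) and in 1 of 12 of the 13 (8.33%), and TTTGAA in 2 of 16 (12.5%) and 2 of 12 (16.7%). These letters in this window did not separate the classes. The windows around the matches of 3 members of the 19 and of FANCC, which is not one of them, are shown on the gene's strand with the match in capitals, as examples of both classes. FANCA was read at chr16:89816801-89816830, FANCC at chr9:95317737-95317766, BRIP1 at chr17:61863751-61863778 and UBE2T at chr1:202342072-202342101, all 4 on the minus strand. In FANCA and BRIP1 the match lies on the other strand, so the capitals are the reverse complement of the motif.
FANCA: actacaccgcgGCGGCAAAgccaaacgcaa
FANCC: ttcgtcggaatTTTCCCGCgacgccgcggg
BRIP1: tatcgccggtTTCAAAagtcaaactgag
UBE2T: cgcgcgctctcaTTTGAAtgcgtgagcgtt

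Next, LNCaP-ENZ48 was compared with LNCaP to see how 48 h of ENZ bore on these genes. In all cells 31 of 34 members were lower, 16 of them past the limit (47.1%, against 7.31% of all genes), and none was higher past it (against 3.11% of all genes). The median log2 ratio was -0.46 over the members and -0.08 over all genes. The interval lay below 0 for 27 members and above 0 for BARD1. No matching share of all genes is given for these counts or for the 31 lower by sign. TMM and DESeq2 scaling each left 12 lower and put BARD1 past the limit. The interval included 0 for ATM, ATR, RAD50, PALB2, RAD51D and FANCL. Beside these values, the share of cells without MKI67 or TOP2A UMIs was higher in LNCaP-ENZ48, as given above. In whole libraries, fewer cells of a phase and less RNA per cell cannot be told apart, and the values within classes of cells are therefore given beside each result.

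Among the kinases and resection genes, EXO1 was past the limit (-0.81 [-1.18, -0.43]). CHEK1, the kinase downstream of ATR, went from 11.9 to 9.17 CPM (-0.37 [-0.54, -0.20]). MRE11, the nuclease of the MRN complex, went from 18.8 to 14.0 CPM (-0.43 [-0.56, -0.29]). ATM was close to its LNCaP level, at 25.6 and 26.5 CPM (0.05 [-0.05, 0.16]). The 8 members of this role had a median of -0.23.

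The BRCA proteins and mediators had a median of -0.66, with 8 of 12 past the limit. BRCA2, which loads the recombinase, went from 16.5 to 9.25 CPM (-0.83 [-0.99, -0.67]). BRCA1 was at 25.0 and 14.9 CPM (-0.75 [-0.88, -0.63]). XRCC2 was at 10.6 and 5.79 CPM (-0.87 [-1.07, -0.68]), and RAD51AP1 at 21.3 and 12.4 CPM (-0.78 [-0.91, -0.64]). All 4 were lower in LNCaP-ENZ48 than in any other library. The others past the limit were XRCC3, which forms a complex with RAD51C (-0.74), the helicase BRIP1 (-0.69), and the translocases RAD54B (-0.63) and RAD54L (-0.52). BARD1 went the other way, from 85.6 to 120.3 CPM (0.49 [0.44, 0.55]), just under the limit. Thus BRCA1 and BARD1, which are stable as a heterodimer, moved in opposite directions in their RNA.

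In the Fanconi group 4 of 11 were past the limit, all lower. FANCB, the X-linked core subunit, had the lowest ratio of the 34 (5.34 and 2.73 CPM; -0.97 [-1.26, -0.68]), followed by FANCA (6.31 and 3.39 CPM; -0.90 [-1.16, -0.64]). FANCM, the translocase that anchors the core complex, was at -0.57 [-0.81, -0.34], and FANCG at -0.53 [-0.71, -0.35]. The substrates FANCD2 (-0.43 [-0.60, -0.26]) and FANCI (-0.48 [-0.60, -0.36]) were lower by like amounts. UBE2T was lower by less (95.3 and 81.3 CPM; -0.23 [-0.29, -0.17]). All 3 genes of the BLM complex were past the limit, at -0.74 for BLM, -0.72 for RMI2 and -0.58 for RMI1.

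**Figure D2:**
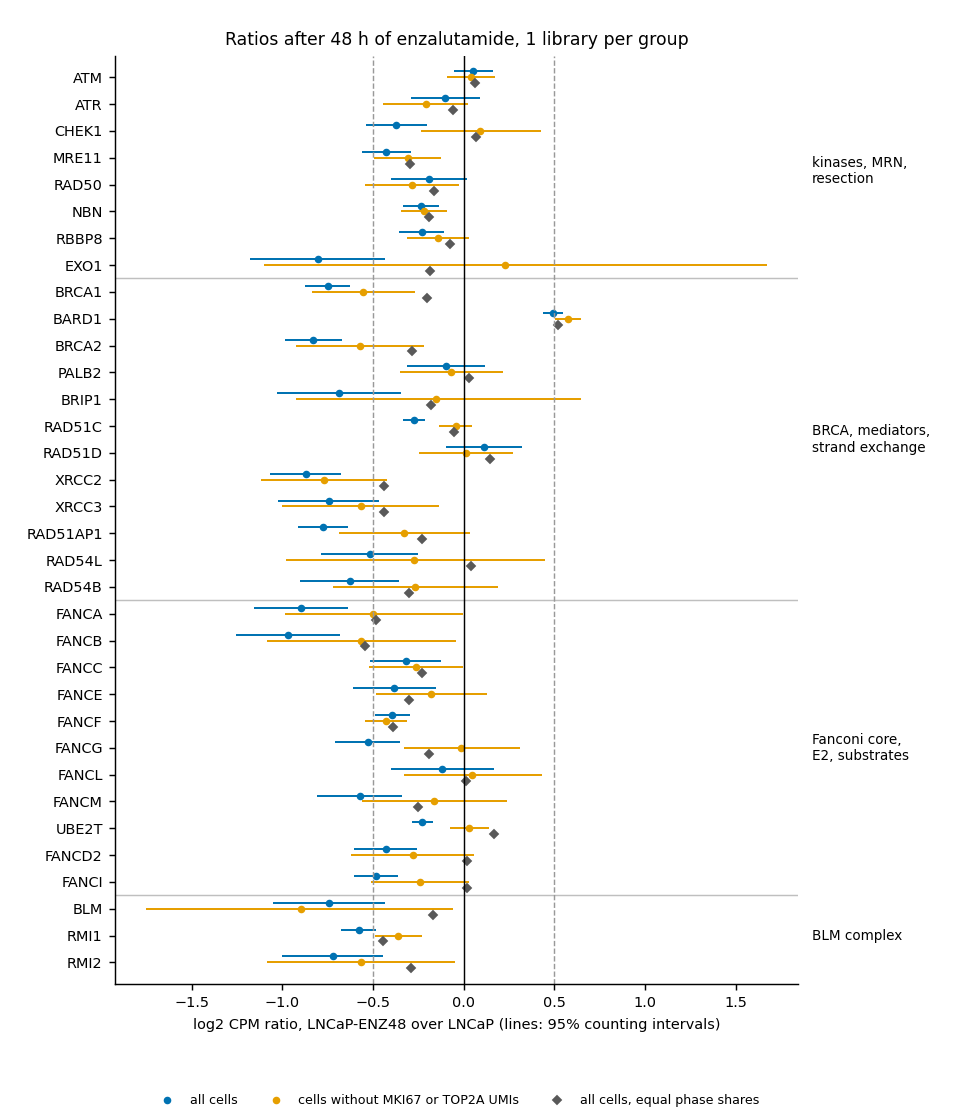
Log2 CPM ratio of LNCaP-ENZ48 over LNCaP for each member in all cells (blue), in cells without MKI67 or TOP2A UMIs (orange) and in all cells weighted to equal phase shares (grey diamonds), with 95% counting intervals on the first and second. The grey and orange symbols lie closer to 0 than the blue for most cycle-linked members. Dashed lines mark 0.5 in each direction.

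The ratios were lowest for the members that follow the cycle. The 19 had a median of -0.69, with 14 past the limit, and the 13 a median of -0.19, with only RMI1 past it. Matching values for all genes that follow the cycle are not given, so these counts describe the members only. Both classes were drawn from libraries that include LNCaP and LNCaP-ENZ48. The cycle ratio of each of the 34 members was its log2 ratio of cells with over cells without MKI67 or TOP2A UMIs. Taken from RES-A, a library outside this comparison, it had a Spearman rho of -0.76 with the ratio of LNCaP-ENZ48 over LNCaP. Taken from RES-B, its rho was -0.71. These points share libraries and total counts within each axis, and the value is a description. When the phases of LNCaP-ENZ48 were weighted to the UMI shares they had in LNCaP, the median of the 34 was -0.19 (all genes -0.06) and that of the 19 was -0.19, and rho with the RES-A cycle ratio was -0.14. Under this weighting only FANCB was lower past the limit (-0.55), and BARD1 was higher (0.52). CHEK1 (0.07), FANCD2 (0.02) and FANCI (0.02) were near 0, and RMI1 (-0.45), XRCC2 (-0.44), XRCC3 (-0.44), FANCA (-0.49) and FANCF (-0.39) were the next lowest.

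In cells with MKI67 or TOP2A UMIs no member was past the limit, and the median over the 34 was -0.05 (all genes -0.05). The share of all genes past the limit is not given for this class, so the count describes the members only. There BRCA1 was at 51.3 CPM untreated and 51.0 CPM treated. BRCA2 was at 33.7 and 31.3 CPM, and UBE2T at 175 and 224 CPM (0.36 [0.29, 0.43]). FANCD2 (0.25 [0.04, 0.46]) and FANCI (0.24 [0.10, 0.37]) were higher there, the opposite of their ratio in all cells. LNCaP cells of this class had a median of 28884 UMIs against 14701 in LNCaP-ENZ48, and deeper cells more often show a UMI that places them in it. In cells called S, treatment took FANCD2 from 34.3 to 27.5 CPM and FANCI from 56.9 to 61.2 CPM. In cells called G2/M, FANCD2 went from 25.6 to 31.2 CPM and FANCI from 63.7 to 69.1 CPM. The intervals overlapped in each of these pairs.

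In cells without MKI67 or TOP2A UMIs, 30 members reached a mean of 1 CPM, 6 of these were lower past the limit (20%, against 5.87% of all genes) and BARD1 was higher (3.33%, against 3.64% of all genes). The 6 were XRCC2 (4.89 and 2.87 CPM; -0.77 [-1.12, -0.42]), BRCA2 (4.49 and 3.02 CPM; -0.57 [-0.92, -0.22]), BRCA1 (6.78 and 4.62 CPM; -0.55 [-0.84, -0.27]), RMI2 (-0.57), XRCC3 (-0.57) and FANCB (-0.57). DESeq2 size factors left 2 lower and 1 higher. The median was -0.25, and -0.05 over all genes. These cells rest on few UMIs for the cycle-linked genes, with 133 UMIs of BRCA2 in LNCaP and 143 in LNCaP-ENZ48. BARD1 was at 78.5 and 117 CPM (0.57 [0.50, 0.65]). EXO1, BRIP1, RAD54L and BLM stayed under a mean of 1 CPM. LNCaP cells of this class had a median of 26157 UMIs against 13534 in LNCaP-ENZ48, and deeper cells more often show a UMI that removes them. With MKI67 and TOP2A looked up in thinned cells, more members were lower past the limit, as given at the end.

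A cell in early S phase can lack UMIs of both genes. In the class without UMIs of the 5 genes, BRCA2 (0.14) and XRCC2 (0.04) were above 0, on 201 LNCaP cells. No interval is given for these 2 values, so counting error could account for the change of sign. Among cells called G1, 48 h of ENZ took BRCA2 from 3.33 to 2.05 CPM. XRCC2 went from 3.44 to 2.296 CPM there, and for both genes the intervals of the levels did not overlap. BRCA2 and XRCC2 were thus lower in cells called G1 but not in the class without UMIs of the 5 genes.

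RES-A was then compared with LNCaP. In all cells 4 members were higher past the limit (11.8%, against 19.6% of all genes) and 6 were lower (17.6%, against 18.0% of all genes). The median was 0.27 over the members and 0.02 over all genes. The interval lay above 0 for 18 members and below 0 for 8. With every cell thinned to 5000 UMIs, 7 were higher and 7 lower. Matching shares of all genes are not given for these counts. With phases weighted to the LNCaP shares the median was 0.04. RES-A had the most cells called S of the 4 libraries.

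The 4 higher members were RMI2, CHEK1, BARD1 and UBE2T. RMI2 was at 5.16, 3.12, 10.1 and 8.14 CPM, so that both resistant lines lay above LNCaP and the short-term treated cells below (RES-A 0.98 [0.76, 1.19], RES-B 0.66 [0.43, 0.89]). CHEK1 was at 11.9, 9.17, 19.9 and 13.8 CPM (RES-A 0.75 [0.61, 0.89], RES-B 0.22 [0.06, 0.38]). UBE2T was at 95.3, 81.3, 139 and 110.2 CPM (0.55 [0.50, 0.60] and 0.21 [0.15, 0.27]). BARD1 is given with RES-B.

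RES-A also held the lowest ratio of a member in all cells among the 4 comparisons, that of FANCE. It was at 6.49, 4.98, 3.12 and 4.19 CPM (RES-A -1.06 [-1.33, -0.79]). FANCC, which binds FANCE in the core complex, was at 8.56, 6.85, 4.43 and 6.89 CPM (RES-A -0.95 [-1.18, -0.72]). ATM was at 25.6, 26.5, 14.4 and 19.9 CPM (RES-A -0.83 [-0.96, -0.70]). RES-A was the lowest library for all 3 of these genes. RMI1 (-0.66 [-0.76, -0.56]), FANCI (-0.57 [-0.70, -0.45]) and BLM (-0.50 [-0.80, -0.20]) completed the 6. The BLM complex was split in RES-A, with RMI2 high and BLM and RMI1 low, as was the FANCD2-FANCI pair, since FANCD2 was higher (0.36 [0.20, 0.51]).

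In RES-A cells without MKI67 or TOP2A UMIs, 31 members reached the minimum, of which 7 were higher (22.6%, against 21.5% of all genes) and 4 lower (12.9%, against 16.6% of all genes). The 7 were CHEK1, RMI2, UBE2T, BARD1 (0.68), BRCA1 (0.67), FANCA (0.61) and NBN, the adaptor of the MRN complex (0.57). LNCaP cells of this class had a median of 26157 UMIs against 11697.5 in RES-A, and deeper cells more often show a UMI that removes them. In all cells at equal phase shares, BRCA1 was at 0.19 and FANCA at 0.03. There RMI2 (0.77), CHEK1 (0.60), BARD1 (0.57), UBE2T (0.45) and NBN (0.45) stayed higher than LNCaP. CHEK1 had the highest of these ratios, at 4.12, 4.39, 10.6 and 5.46 CPM (RES-A 1.37 [1.07, 1.67]). RMI2 was at 2.13, 1.43, 5.03 and 3.82 CPM (1.24 [0.82, 1.68]) and UBE2T at 40.0, 40.8, 72.3 and 57.9 CPM (0.86 [0.76, 0.95]). CHEK1, RMI2 and UBE2T were thus higher in RES-A in both classes of cells. In cells called G1, CHEK1 was at 3.24 CPM in LNCaP and 8.29 CPM in RES-A, and in cells called G2/M at 23.8 and 35.0 CPM. In cells called S, where it peaks, its levels lay closer together (50.4 and 52.5 CPM). ATM (-0.91), FANCC (-1.04), FANCE (-1.09) and RMI1 (-0.58) remained lower in cells without MKI67 or TOP2A UMIs.

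In RES-B, 3 members were higher past the limit in all cells (8.82%, against 21.9% of all genes) and 2 were lower (5.88%, against 13.9% of all genes), and the median was 0.01 (all genes 0.10). With every cell thinned to 5000 UMIs the counts were 6 higher and 5 lower. BARD1 was highest in RES-B, at 85.6, 120.3, 129 and 172 CPM. The intervals of these 4 levels did not overlap, and the RES-B ratio was 1.00 [0.95, 1.06]. BARD1 was above LNCaP in all 3 ENZ-exposed libraries, also within cells with (0.47, 0.51 and 0.66) and without (0.57, 0.68 and 1.22) MKI67 or TOP2A UMIs.

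BRCA2 was the second, at 16.5, 9.25, 21.6 and 25.6 CPM (RES-B 0.64 [0.51, 0.77]). Its level in S cells was 51.9, 52.4, 64.3 and 88.8 CPM. RMI2 was the third. The lower members were FANCE (-0.63 [-0.89, -0.38]) and MRE11, at 18.8, 14.0, 18.7 and 12.8 CPM (RES-B -0.55 [-0.69, -0.41]). Its partners RAD50 (0.26 [0.06, 0.47]) and NBN (0.29 [0.20, 0.39]) were both above LNCaP. BRCA1 was at 25.0 CPM in both LNCaP and RES-B, with an interval of the ratio from -0.11 to 0.11.

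In RES-B cells without MKI67 or TOP2A UMIs, 5 of 31 members were higher (16.1%, against 24.0% of all genes) and 1 lower (3.23%, against 13.3% of all genes). The 5 were BARD1 (1.22), RMI2 (0.85), FANCM (0.60), BRCA2 (0.59) and UBE2T (0.54), and the lower one was MRE11 (-0.61). LNCaP cells of this class were deeper here too, with a median of 26157 UMIs against 11873 in RES-B. The median was 0.0045, and 0.14 over all genes. TMM and DESeq2 scaling each moved the median of all genes by -0.13 in these cells and left 2 members higher and 4 lower.

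**Figure D3:**
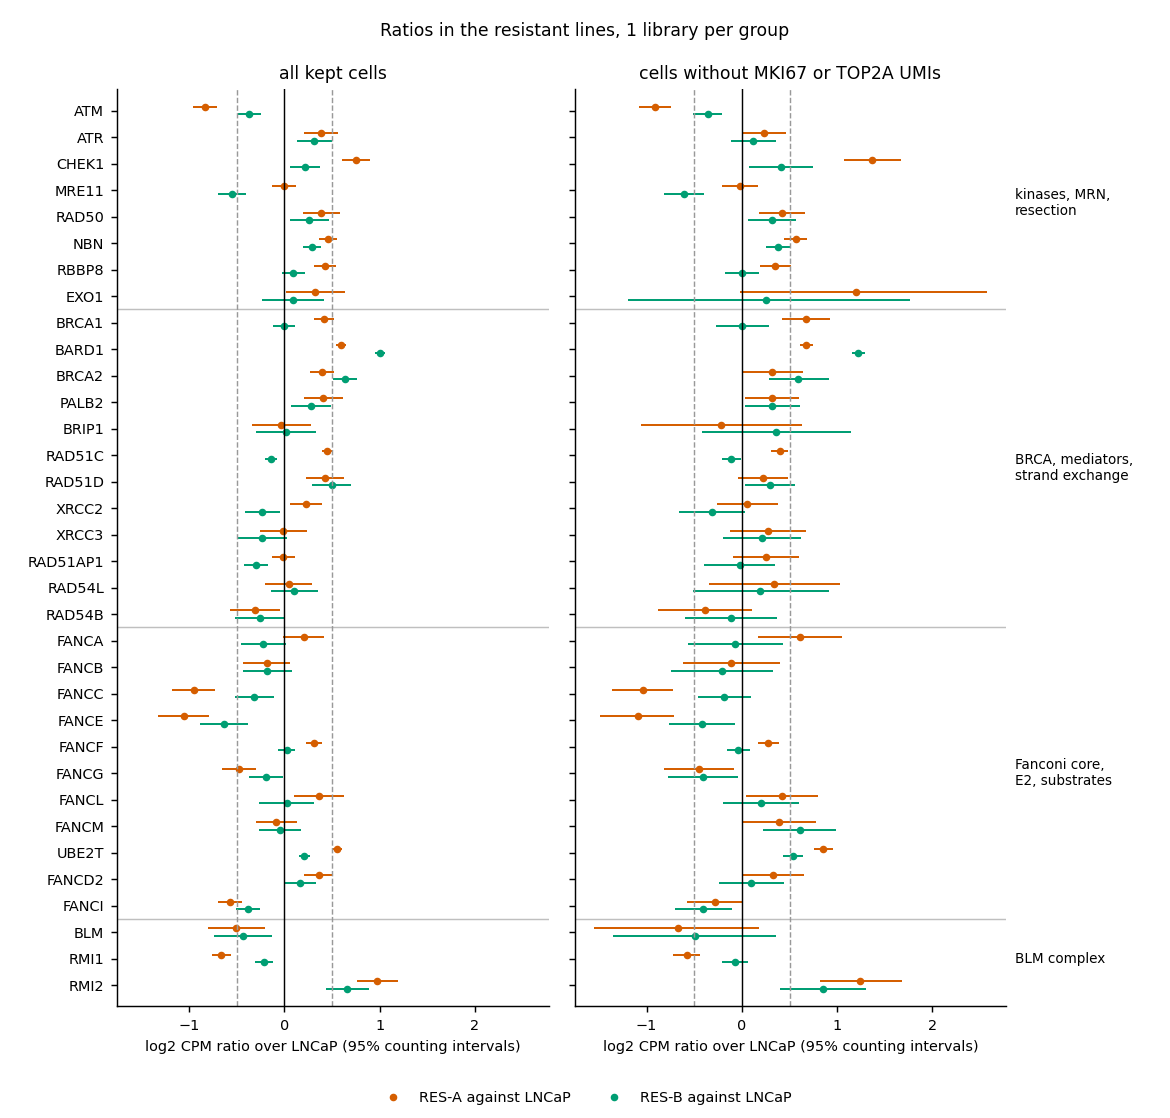
Log2 CPM ratio over LNCaP of each member in RES-A (orange) and RES-B (green), in all kept cells (left) and in cells without MKI67 or TOP2A UMIs (right), with 95% counting intervals. BARD1, RMI2 and UBE2T lie right of 0 in both lines and both panels, and FANCE left of 0. Dashed lines mark 0.5 in each direction.

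The resistant lines also differed from each other. In all cells 1 member was past the limit with RES-B higher (2.94%, against 18.3% of all genes) and 3 were lower (8.82%, against 12.0% of all genes), with a median of -0.13 (all genes 0.08). FANCC was the higher one (0.64 [0.40, 0.87]). The lower were RAD51C (-0.59 [-0.65, -0.54]), MRE11 (-0.55 [-0.69, -0.41]) and CHEK1 (-0.53 [-0.67, -0.40]). At equal phase shares MRE11 (-0.47) and CHEK1 (-0.34) were no longer past the limit, and RAD51C was (-0.51). RAD51C was at 88.6, 73.2, 121 and 80.3 CPM. In cells without MKI67 or TOP2A UMIs, 5 of 31 members were higher (16.1%, against 17.8% of all genes) and 5 were lower (16.1%, against 12.6% of all genes). The higher were FANCC (0.86), FANCE (0.67), ATM (0.55), BARD1 (0.54) and RMI1 (0.51), and the lower CHEK1 (-0.96), FANCA (-0.68), BRCA1 (-0.67), MRE11 (-0.58) and RAD51C (-0.51). With TMM the split was 2 higher and 5 lower, and with DESeq2 size factors 3 and 5.

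Lines kept in culture can differ in copy number, so each member was set beside the 50 expressed genes nearest to it on its chromosome, with values relative to the median of all genes. In LNCaP-ENZ48, a treatment of the same cells, the medians of these neighbours lay between -0.11 and 0.13. They ran from -0.66 to 0.42 in RES-A and from -0.54 to 0.43 in RES-B. Across the 34 members, a member's ratio and that of its neighbours had a Pearson r of 0.02 after 48 h of ENZ, 0.47 for RES-A, 0.32 for RES-B and 0.61 between the resistant lines. Members on 1 chromosome share neighbours, and these values are descriptions.

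**Figure D4:**
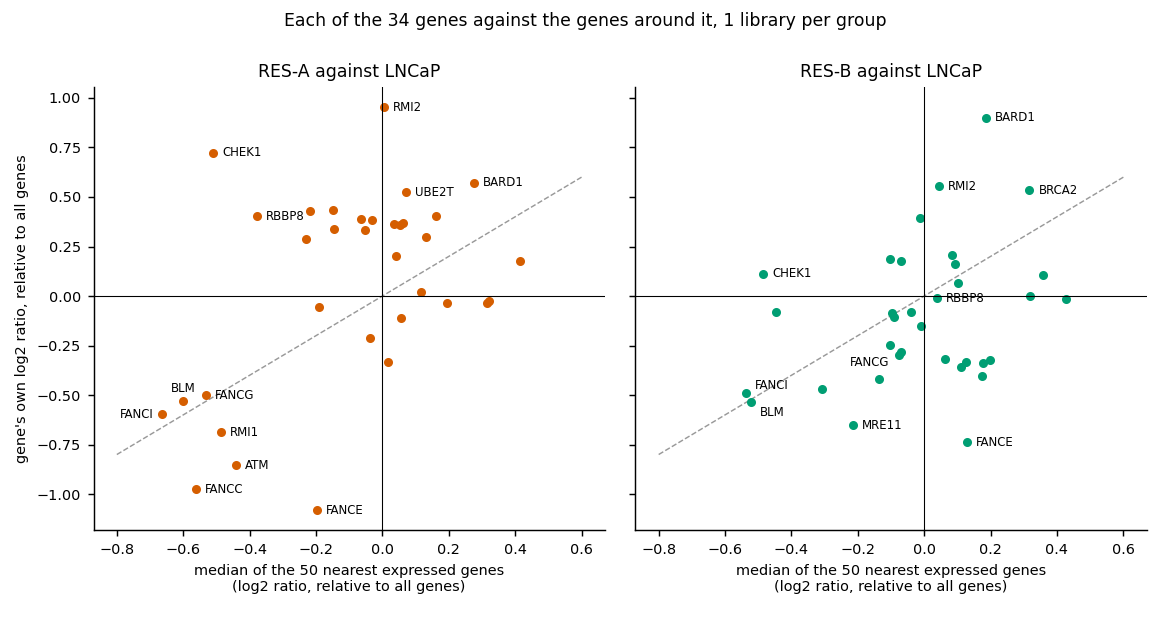
Log2 ratio of each member (vertical axis) against the median of the 50 nearest expressed genes (horizontal axis) in RES-A (left) and RES-B (right), both relative to all genes, with a dashed line where both are equal. FANCI and BLM lie on the line at the lower left, whereas CHEK1 lies above it and FANCE below it in both lines.

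Several of the low members stood in low surroundings. FANCI and BLM lie near each other on chromosome 15 (positions 89243945 to 89317261 and 90717346 to 90816166). Their neighbours were at -0.66 and -0.60 in RES-A, and both genes were within 0.07 of them. In RES-B both were within 0.05 of their neighbours, which were at -0.54 and -0.52. The chromosome 9 members FANCG, RMI1 and FANCC had neighbours at -0.53, -0.49 and -0.56 in RES-A, with FANCG 0.03 above, RMI1 0.20 below and FANCC 0.41 below them. In RES-B the chromosome 9 neighbours were near 0 (-0.08, 0.06 and -0.14). The higher level of FANCC and RMI1 in RES-B than in RES-A went with neighbours higher by 0.43 and 0.47. MRE11, on chromosome 11, had neighbours at -0.22 in RES-B and was 0.44 below them. Between RES-B and RES-A the neighbours of MRE11 were at -0.45, and MRE11 was 0.18 below them. Copy number was not measured in these libraries, and its part was not tested.

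Other members stood apart from the genes around them. FANCE, on chromosome 6, was 0.88 below its neighbours in RES-A and 0.87 below in RES-B. CHEK1 and ATM lie on the same arm of chromosome 11 (125625163 to 125676255 and 108223044 to 108369102), in surroundings that were low in RES-A (-0.51 and -0.44). ATM was 0.41 below its neighbours there, as FANCC was below its own, so both were low in low surroundings and lower than these. CHEK1 was 1.23 above its neighbours. In RES-B, CHEK1 was 0.60 above neighbours at -0.49. RMI2 was 0.95 (RES-A) and 0.51 (RES-B) above neighbours near 0. BARD1 was above its neighbours by 0.30 in RES-A, by 0.71 in RES-B and by 0.55 after 48 h of ENZ. BRCA2 was 0.22 above neighbours at 0.32 in RES-B. RBBP8, the cofactor of MRE11 in resection, was 0.78 above neighbours that were low in RES-A (-0.38).

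Finally, 36 further genes of the pathway and 15 of end joining were counted in all cells. In LNCaP-ENZ48, 5 of the 36 were lower past the limit and 0 were higher, with a median of -0.24 (7.31% and 3.11% of all genes). The lowest were the nuclease partner EME1 (-0.92 [-1.15, -0.69]) and the resolvase GEN1 (-0.79 [-1.09, -0.50]), and the highest were ERCC1 (0.27) and BABAM2 (0.30). In RES-A, 4 were higher and 2 lower (19.6% and 18.0% of all genes). FIGNL1, which removes the recombinase from filaments, went from 16.8 to 42.7 CPM (1.34 [1.23, 1.45]) and the kinase CHEK2 from 11.0 to 18.0 CPM (0.71 [0.56, 0.86]), whereas the helicase WRN went from 12.4 to 7.95 CPM (-0.64 [-0.82, -0.47]) and UIMC1, of the BRCA1-A complex, stood at -0.51. WRN was lower still in RES-B, at 3.96 CPM (-1.65 [-1.88, -1.42]), where 4 of the 36 were higher and 1 lower (21.9% and 13.9% of all genes) and BRCC3 (0.79) was highest. Of the 14 end-joining genes at 1 CPM or more, to be read against the same shares of all genes, none was past the limit in LNCaP-ENZ48, with a median of -0.16. In RES-A 6 were higher and 2 lower, with SHLD3 of the shieldin complex (1.09) and the Ku subunit XRCC6 (0.56) highest and SHLD1 (-0.76) and SHLD2 (-0.54) lowest. In RES-B 3 were higher, with SHLD3 (0.74) and the kinase PRKDC (0.65) first, and 0 were lower.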

How the data were processed

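Per the labels, living cells of the 4 groups were sorted and sequenced as 10x Chromium 3′ libraries. The authors deposited whole-number UMI counts per gene and barcode from Cell Ranger 3.0.2 on GRCh38. The study's filters were applied. LNCaP cells had 3000 to 7000 genes, 16000 to 50000 UMIs and under 15% mitochondrial UMIs. In the rest, 1500 to 5000 genes, 5000 to 25000 UMIs and mitochondrial limits of 15% (LNCaP-ENZ48), 17% (RES-A) and 20% (RES-B) were required. LNCaP cells are therefore deeper by construction too. Doublets were kept. Counts were summed per library and scaled to CPM, with exact Poisson and conditional binomial (Clopper-Pearson) 95% intervals. A count of 0 was set to 3 UMIs. With 1 library per group no test was run, and the test over cells used in the study was left out. Phases came from the Seurat 5.3.0 lists without BLM, BRIP1, EXO1 and RAD51AP1, scored in scanpy 1.11.5 on cells thinned to 5000 UMIs. Positions were from GENCODE 44, in which all 34 members were found. Scaling alternatives used edgeR 4.0.16 (TMM) and DESeq2 1.42.0. The members and lists were chosen with earlier results of these data known. All 34 members could be named, with 2 highest and 2 lowest genes per other list.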

Additional observations from a re-analysis of the deposited data

Results flagged for a closer look

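RAD51C and XRCC2 lay above LNCaP in RES-A and below it in RES-B with both counting intervals past 0. RAD51C was at 0.45 in RES-A and -0.14 in RES-B (RES-B against RES-A -0.594), and XRCC2 at 0.23 and -0.23 (-0.459). At equal phase shares RAD51C stayed above LNCaP in RES-A (0.38), whereas XRCC2 did not (-0.0060), and in RES-B they were at -0.14 and -0.26. Each group was 1 library, and the difference between the lines was not tested.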

How the results depend on the processing

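Of 2584 recomputed member values, 2335 stayed inside their counting interval and 243 left it. A further 6, whose main value was past the limit, changed sign. Sign changes of values under the limit were not counted apart. The 6 were RAD54L in LNCaP-ENZ48 at equal phase shares (0.0404), and, in cells without MKI67 or TOP2A UMIs, BRCA2 (0.14) and XRCC2 (0.0406) in LNCaP-ENZ48 with 5 genes looked up, and EXO1 in RES-A (-0.0455 in thinned cells, -0.60 with 5 genes) and in RES-B against RES-A (0.70 with 5 genes), which rests on 8 to 23 UMIs. The cause was not tested. The following counts are of members higher or lower past the limit, without the matching shares of all genes. In LNCaP-ENZ48, 1 member (BARD1) was higher with 1 filter for all libraries, TMM, DESeq2 size factors, thinned cells or equal phase shares. At equal phase shares 1 was lower and the median was -0.19 (RES-A 0.0383). A minimum of 10 CPM, which leaves fewer genes, gave 4 lower after 48 h of ENZ, 3 for RES-A and 1 for RES-B, and for RES-B against RES-A 0 higher and a median of -0.29. With a log2 limit of 1, LNCaP-ENZ48 had 0 lower, RES-A 0 higher and 1 lower, RES-B 1 higher and 0 lower, and RES-B against RES-A 0 either way. Thinned cells gave 7 higher in RES-A, 6 higher and 5 lower in RES-B, and 6 lower in RES-B against RES-A. Equal phase shares gave 2 higher and 1 lower there. In cells without MKI67 or TOP2A UMIs, LNCaP-ENZ48 had 2 lower with DESeq2 size factors, 0 at 10 CPM, 11 with the lookup in thinned cells, and 3 higher and 2 lower with 5 genes. RES-A had 3 higher and 2 lower at 10 CPM and 12 higher with 5 genes. RES-B had 2 higher and 4 lower with TMM and with DESeq2, 2 higher at 10 CPM, 3 higher and 2 lower with the lookup in thinned cells, 11 higher and 2 lower with 5 genes, and 2 lower in thinned cells, without the cells of highest UMI count and with no filter. RES-B against RES-A had 2 higher with TMM, 3 with DESeq2 and in thinned cells, 3 higher and 2 lower at 10 CPM, 3 lower with the lookup in thinned cells, and 8 higher and 3 lower with 5 genes. DESeq2 size factors moved the median of all genes by 0.10 in LNCaP-ENZ48, and TMM by -0.11 in RES-B. No paired analysis was possible because each group was 1 library.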
